A study of Mus musculus with 8 samples.

Results

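The soluble supernatant of an adult mouse testis lysate was set against the whole lysate from which it was spun, in small RNA of 19 to 33 nt. Both libraries came from C57BL/6 mice at least 6 weeks old, with 1 library of the supernatant and 1 of the lysate. Seminiferous tubules had been dissociated with collagenase, and the cells were fixed with formaldehyde and broken by sonication in RIPA detergent buffer, so both libraries hold RNA of fixed cells of several types. Centrifugation then gave the supernatant and a pellet that served as the start of chromatoid body purification. The labels state no genotype, and the sources used here do not give the number of animals behind each library. The members were the features at or above 1 FPKM (fragments scaled to feature length and library size) in at least 1 of the 2 columns: 4999 of the 5096 listed features, from 2 of the 8 samples of the series. By the start of their names they fell into 387 microRNA genes, 181 piRNA clusters, 98 small structured RNA genes (names in Snor, Scarna and Rnu), 798 transcripts assembled without annotation and 3535 other named genes. Just inside the limit was Tulp3 with 1.0 FPKM in the supernatant and 0.867 FPKM in the lysate, and just outside it was Vit with 0.430 FPKM in the supernatant and just under 1.0 FPKM in the lysate.

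MicroRNAs are cut from hairpin precursors and guide Argonaute proteins to messenger RNAs, which they recognise mainly through the seed, bases 2 to 8 of the mature strand. PIWI-interacting RNAs (piRNAs) are somewhat longer, are bound by PIWI proteins and in the adult testis come mostly from long transcripts of a limited number of loci, the piRNA clusters. In round spermatids, haploid cells that arise from meiosis, PIWI proteins, the helicase MVH and parts of the microRNA machinery gather in the chromatoid body, a dense cytoplasmic granule that sediments when a lysate is spun. Which small RNAs stayed in solution is the question this comparison addresses.

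The sequences below are those of the microRNA families on which the results turn: families whose members shared a side, and families whose members parted although the seed was the same. They are RefSeq mature sequences (GRCm38.p6), matched to the authors' gene names, which succeeded for 336 of the 387 microRNA genes. Capitals mark the seed. The authors' tables give 1 value per hairpin gene and do not separate its 2 arms, so each sequence is the arm that carries the family's seed, not necessarily all of the reads counted.
mmu-miR-449a-5p: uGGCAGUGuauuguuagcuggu
mmu-miR-34a-5p: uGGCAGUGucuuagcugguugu
mmu-miR-34b-5p: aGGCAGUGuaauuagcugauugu
mmu-miR-195a-5p: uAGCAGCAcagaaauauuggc
mmu-miR-15b-5p: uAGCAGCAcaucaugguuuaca
mmu-miR-16-5p: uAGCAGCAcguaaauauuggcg
mmu-miR-15a-5p: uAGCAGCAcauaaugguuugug
mmu-let-7f-5p: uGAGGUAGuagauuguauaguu
mmu-let-7a-5p: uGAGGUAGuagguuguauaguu
mmu-let-7b-5p: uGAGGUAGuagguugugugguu
mmu-let-7c-5p: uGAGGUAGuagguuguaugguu
mmu-let-7i-5p: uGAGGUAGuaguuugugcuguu
mmu-miR-26b-5p: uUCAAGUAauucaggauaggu
mmu-miR-26a-5p: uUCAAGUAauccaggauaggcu
mmu-miR-30e-5p: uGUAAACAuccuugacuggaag
mmu-miR-30a-5p: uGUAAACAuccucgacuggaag
mmu-miR-30c-5p: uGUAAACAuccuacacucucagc
mmu-miR-19a-3p: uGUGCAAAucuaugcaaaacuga
mmu-miR-19b-3p: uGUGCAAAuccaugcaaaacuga
mmu-miR-101a-3p: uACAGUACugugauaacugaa
mmu-miR-148a-3p: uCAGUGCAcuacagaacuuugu
mmu-miR-148b-3p: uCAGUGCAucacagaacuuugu
mmu-miR-152-3p: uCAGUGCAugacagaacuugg
mmu-miR-471-5p: uACGUAGUauagugcuuuucac

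The supernatant lay close to the lysate for most features, and microRNA genes stood furthest above it. Ratios are given as log2 of (supernatant FPKM + 1) over (lysate FPKM + 1), so a positive value is higher in the supernatant, and low features are pulled towards 0. The median log2 ratio was 0.21 over microRNA genes, -0.07 over piRNA clusters, -0.11 over small structured RNA genes, 0.01 over assembled transcripts and 0.02 over other named genes, against 0.02 over all features. Summed FPKM of microRNA genes was 1.36 times as high in the supernatant as in the lysate, while the sums of assembled transcripts, piRNA clusters, small structured RNA genes and other named genes stood at 0.862, 0.95, 0.954 and 1.01 times the lysate sum. Implied reads, derived below, put 5.50% of reads on microRNA genes in the supernatant and 3.79% in the lysate, and 88.8% on piRNA clusters in the supernatant and 90.7% in the lysate. FPKM is relative to the library, and the deposited values also carry a scale set for each table: the same lysate library stood 2.39 times higher in the pellet table. Where a ratio of 0 lies depends on that scaling, and amounts per cell were not measured.

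**Figure D1:**
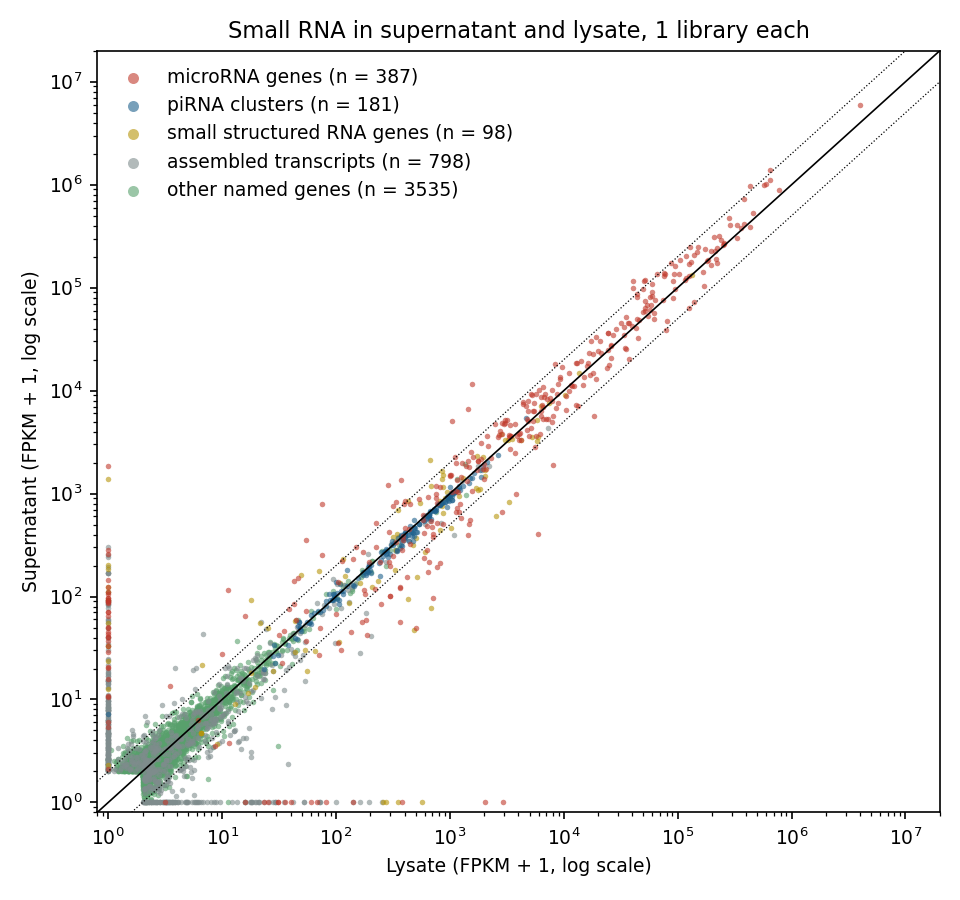
Supernatant FPKM + 1 (y axis) against lysate FPKM + 1 (x axis), both on log scales, for 4999 features in 1 library each, coloured by class; the solid line is equality, the dotted lines are 2-fold, and features listed at 0 in a column lie on its axis edge. piRNA clusters hug the line, microRNA genes spread around it and lie mostly above it at high levels.

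With 1 library a side no difference here has a replicate check, and no test between supernatant and lysate was made. What can be given is a counting error. Each standard error (SE) is the log2 ratio without a pseudocount divided by the test statistic of the authors' deposited table. It covers counting and the authors' model of it, not differences between animals or preparations. For low features it belongs to that ratio and not to the printed one, which is pulled towards 0. The SE also gives implied reads: the value of 1 supernatant read was 0.667 that of 1 lysate read, since 502 low features lay on whole-number multiples of that step (whole numbers up to 6, log tolerance 2e-05) against 4 for a step moved by 1%. The median implied library size over 22 long piRNA clusters was 12620000 reads in the supernatant and 8420000 reads in the lysate. These read numbers are estimates under Poisson counting, and the library sizes also take the scale of this table at face value.

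At least 2-fold higher in the supernatant were 61 microRNA genes, 1 piRNA cluster, 17 small structured RNA genes, 239 assembled transcripts and 40 other named genes; over all features these were 358, or 7.16%. At least 2-fold lower were 49 microRNA genes, 0 piRNA clusters, 16 small structured RNA genes, 173 assembled transcripts and 33 other named genes; over all features these were 271, or 5.42%. Most of these features were listed at 0 in a column: a lysate value of 0 lay behind 275 of the increases, and a supernatant value of 0 behind 144 of the decreases. With the limit and the pseudocount both at 1 FPKM, a member at 0 in a column is past 2-fold by construction. The shares of 7.16% and 5.42% over all features include these members. Among the 4580 features above 0 in both columns, 83 were past 2-fold on the high side (1.81%) and 127 on the low side (2.77%), of which 27 and 34 were microRNA genes. Among the 1225 features with a counting SE of at most 0.25, 8 lay past 2-fold on the high side (0.653%) and 9 on the low side (0.735%). All 8 of the higher ones were microRNA genes, out of 186 microRNA genes so measured. The 9 lower ones were 2 microRNA genes, out of those 186, and 7 other named genes, out of 809. None of the 180 piRNA clusters, 4 small structured RNA genes and 46 assembled transcripts at that precision passed 2-fold in either direction. In the authors' deposited table, a q-value below 0.05 was given to 191 features that were higher (3.82%) and 245 that were lower (4.9%). The authors' deposited table called fewer of them, 48 higher (0.96%) and 81 lower (1.62%). In the authors' deposited table the q-value was below 0.05 for 96 microRNA genes higher and 36 lower, 18 piRNA clusters higher and 94 lower, and 70 other named genes higher and 103 lower.

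**Figure D2:**
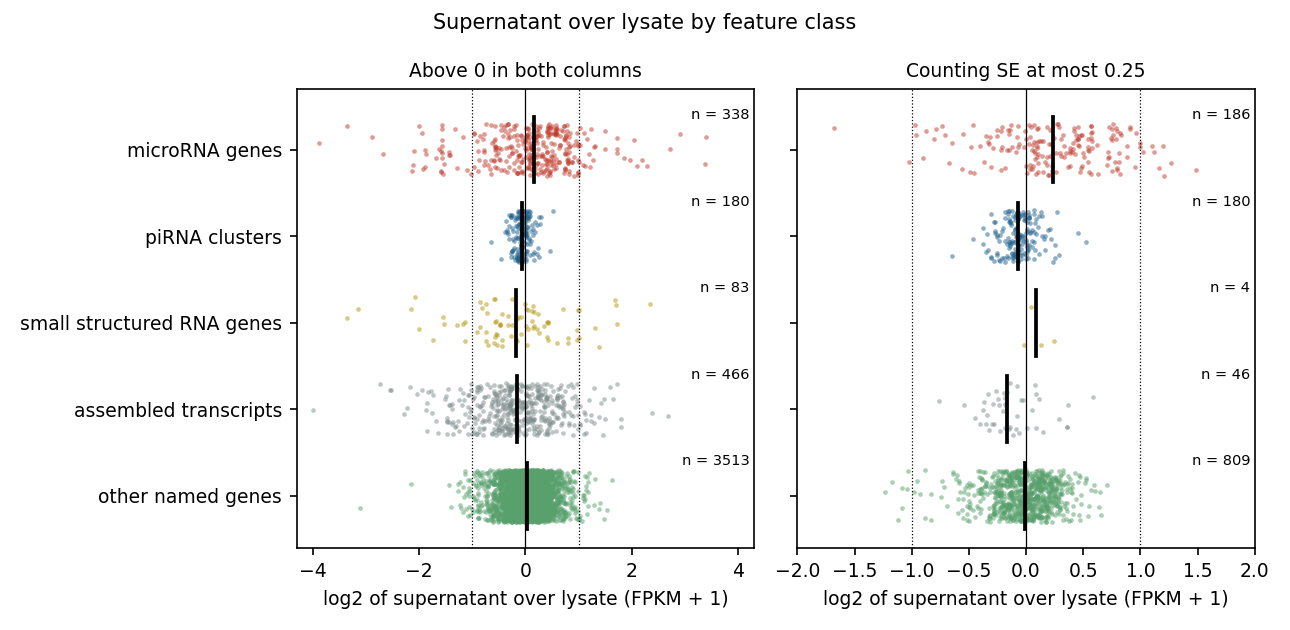
Log2 of supernatant over lysate (x axis, FPKM + 1) for each feature by class (y axis, points spread at random within a class); the left panel has features above 0 in both columns and the right panel those with a counting SE of at most 0.25, with bars at the class medians and dotted lines at 2-fold. In the right panel 8 microRNA genes lie past the upper line, and no piRNA cluster lies past either.

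Among the microRNA genes with a counting SE of at most 0.25, 136 of 186 were above 0 and 50 below, with a median log2 ratio of 0.24 and a range of -1.68 to 1.49. Over all 1225 features at that precision the median was -0.01. The largest single value of the class was that of Mir34c, a germ cell microRNA of the miR-34 family, with 5893180 FPKM in the supernatant and 3951080 FPKM in the lysate. It alone made up 21.5% of microRNA FPKM in the supernatant and 19.6% in the lysate. FPKM divides by length and so weights short hairpins heavily. With microRNA genes split into 4 groups by mean level, the median ratio was 0.41, 0.09, 0.12 and 0.30 from the lowest group to the highest, with 41, 10, 3 and 7 genes at least 2-fold higher and 30, 16, 2 and 1 at least 2-fold lower. The value of the lowest group rests on 33 of its 97 genes that were listed at 0 in the lysate: over its 51 genes above 0 in both columns the median, without a pseudocount, was -0.43. X-linked microRNA genes had a median of 0.38 (57 genes), and those on other chromosomes 0.19 (330 genes); with a counting SE of at most 0.25 the medians were 0.41 (35 genes) and 0.21 (151 genes).

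The miR-34 and miR-449 genes, which share the seed GGCAGUG and are expressed in meiotic and haploid germ cells, were above the lysate in 5 of 6 cases. Mir449a (chromosome 13, 113827741 to 113827832, mm9) was at 975179 FPKM in the supernatant and 434923 FPKM in the lysate, log2 ratio 1.16 (SE 0.017). Mir34a followed with 1.0 (SE 0.033), then Mir34b with 0.76 (SE 0.018), Mir34c with 0.58 (SE 0.0081) and Mir449c with 0.47 (SE 0.13). The differences between Mir449a, Mir34a, Mir34b and Mir34c exceed their counting errors, although these genes share a seed. Mir34b and Mir34c lie within 10 kb of each other on one strand and differed by 0.18 (SE 0.020). Mir449b, with an implied 3.68 reads in the supernatant and 7.35 reads in the lysate, had -1.58 (SE 0.92).

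In the family of miR-15 and miR-16, whose seed AGCAGCA targets cell cycle genes, 6 of 7 genes were above the lysate, with a median of 0.79. Mir195 had 116418 FPKM in the supernatant and 50470 FPKM in the lysate, log2 ratio 1.21 (SE 0.048). Mir15b had 1401270 FPKM in the supernatant and 646199 FPKM in the lysate, log2 ratio 1.12 (SE 0.025). Mir16-1 and Mir16-2, which give the same mature strand, so that their reads cannot be assigned to one gene, both had 0.79 (SE 0.014 and 0.015). The lysate values of both, and of several other microRNA genes, depended on the table, with examples given below. Mir497 had 0.49 (SE 0.058). Mir15a stood apart from its relative Mir15b: it had 377609 FPKM in the supernatant and 359632 FPKM in the lysate, log2 ratio 0.07 (SE 0.025). Counted from the 5′ end, the mature strand of miR-15a differs from that of miR-15b by C12A, A20G, C21U and A22G (the miR-15b base first), all outside the seed. Mir322 was the only member of the family below 0, with -0.18 (SE 0.043).

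All 12 genes of the let-7 family, regulators of differentiation with the seed GAGGUAG, were above 0, none of them by 2-fold, and they formed an upper and a lower set. Mirlet7a-1 and Mirlet7a-2 share the mature strand with this seed, as do Mirlet7c-1 and Mirlet7c-2, and Mirlet7f-1 and Mirlet7f-2. Reads of these strands cannot be assigned to one gene, so the 12 genes are not 12 separate measurements. Mirlet7f-2 had 185510 FPKM in the supernatant and 104601 FPKM in the lysate, log2 ratio 0.83 (SE 0.043), and Mirlet7f-1 had 0.82 (SE 0.044). Mir98 followed with 0.73 (SE 0.17), Mirlet7a-1 and Mirlet7a-2 with 0.57 each, Mirlet7d with 0.55, Mirlet7g with 0.49 and Mirlet7e with 0.34 (SE 0.092). The lower set lay between 0.05 and 0.10: Mirlet7b had 270062 FPKM in the supernatant and 252752 FPKM in the lysate, log2 ratio 0.10 (SE 0.029), Mirlet7i had 0.09 (SE 0.043), Mirlet7c-1 had 0.06 (SE 0.025) and Mirlet7c-2 had 0.05 (SE 0.025). Relative to let-7a, with its base first, let-7f differs by G12A, let-7c by A19G, let-7b by A17G and A19G, and let-7i by G12U, A17G, U18C and A19U. Mirlet7e lies beside Mir125a, which had 0.02, and Mirlet7c-1 beside Mir99a, which had 0.13.

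Of the miR-26 genes, Mir26b had 98220 FPKM in the supernatant and 40874 FPKM in the lysate, log2 ratio 1.26 (SE 0.063), and Mir26a-1 and Mir26a-2, which share a mature strand, had 0.79 each. In the miR-30 family, with the seed GUAAACA, Mir30e had 0.76 (SE 0.043), Mir30a 0.75 (SE 0.046), Mir30d 0.56 (SE 0.048) and Mir30b 0.50 (SE 0.048). Mir30c-1 and Mir30c-2, which share the mature strand with the seed, were below the lysate, with -0.47 (SE 0.081) and -0.48 (SE 0.079). Mir30c-1 had 25532 FPKM in the supernatant and 35273 FPKM in the lysate. Mir29a had 0.75 (SE 0.024) and Mir29b-1 0.45 (SE 0.039). In the groups of miR-23, miR-27 and miR-24 on chromosomes 8 and 13, each microRNA had nearly the same ratio in both copies of the group: 0.81 and 0.88 for Mir27a and Mir27b, 0.32 and 0.31 for Mir23a and Mir23b, and 0.11 and 0.04 for Mir24-2 and Mir24-1. The mature miR-27b differs from miR-27a by C19U (the miR-27a base first), whereas both miR-24 genes give 1 mature strand, whose reads cannot be assigned to one gene.

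Families with the seeds GUGCAAA and CAGUGCA were below the lysate in every member. The miR-19 genes belong to the growth-promoting miR-17-92 cluster and its X-linked paralog. Mir19a had 39058 FPKM in the supernatant and 79206 FPKM in the lysate, log2 ratio -1.02 (SE 0.070), with an implied 745 reads in the supernatant and 1007 reads in the lysate. Mir19b-1 and Mir19b-2, which share a mature strand, had -0.97 and -0.96 (SE 0.050 each). The mature miR-19b differs from miR-19a by U11C (the miR-19a base first). Of the miR-148 and miR-152 genes, Mir148a (chromosome 6, 51219810 to 51219909, mm9) had 407 FPKM in the supernatant and 5985 FPKM in the lysate, log2 ratio -3.87 (SE 0.43), on an implied 12.6 reads in the supernatant and 124 reads in the lysate. Mir152 had -0.90 (SE 0.20) and Mir148b -0.71 (SE 0.18). The strand of miR-148a differs from miR-148b by C9U and U10C and from miR-152 by C9U, U10G and U20G, with the miR-148a base first and miR-152 shorter by its last base. Mir101a had 5715 FPKM in the supernatant and 18285 FPKM in the lysate, log2 ratio -1.68 (SE 0.17), the lowest of the 186 microRNA genes at that precision. Mir193 had -2.09 (SE 0.41) on an implied 17.0 reads in the supernatant and 48.3 reads in the lysate.

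**Figure D3:**
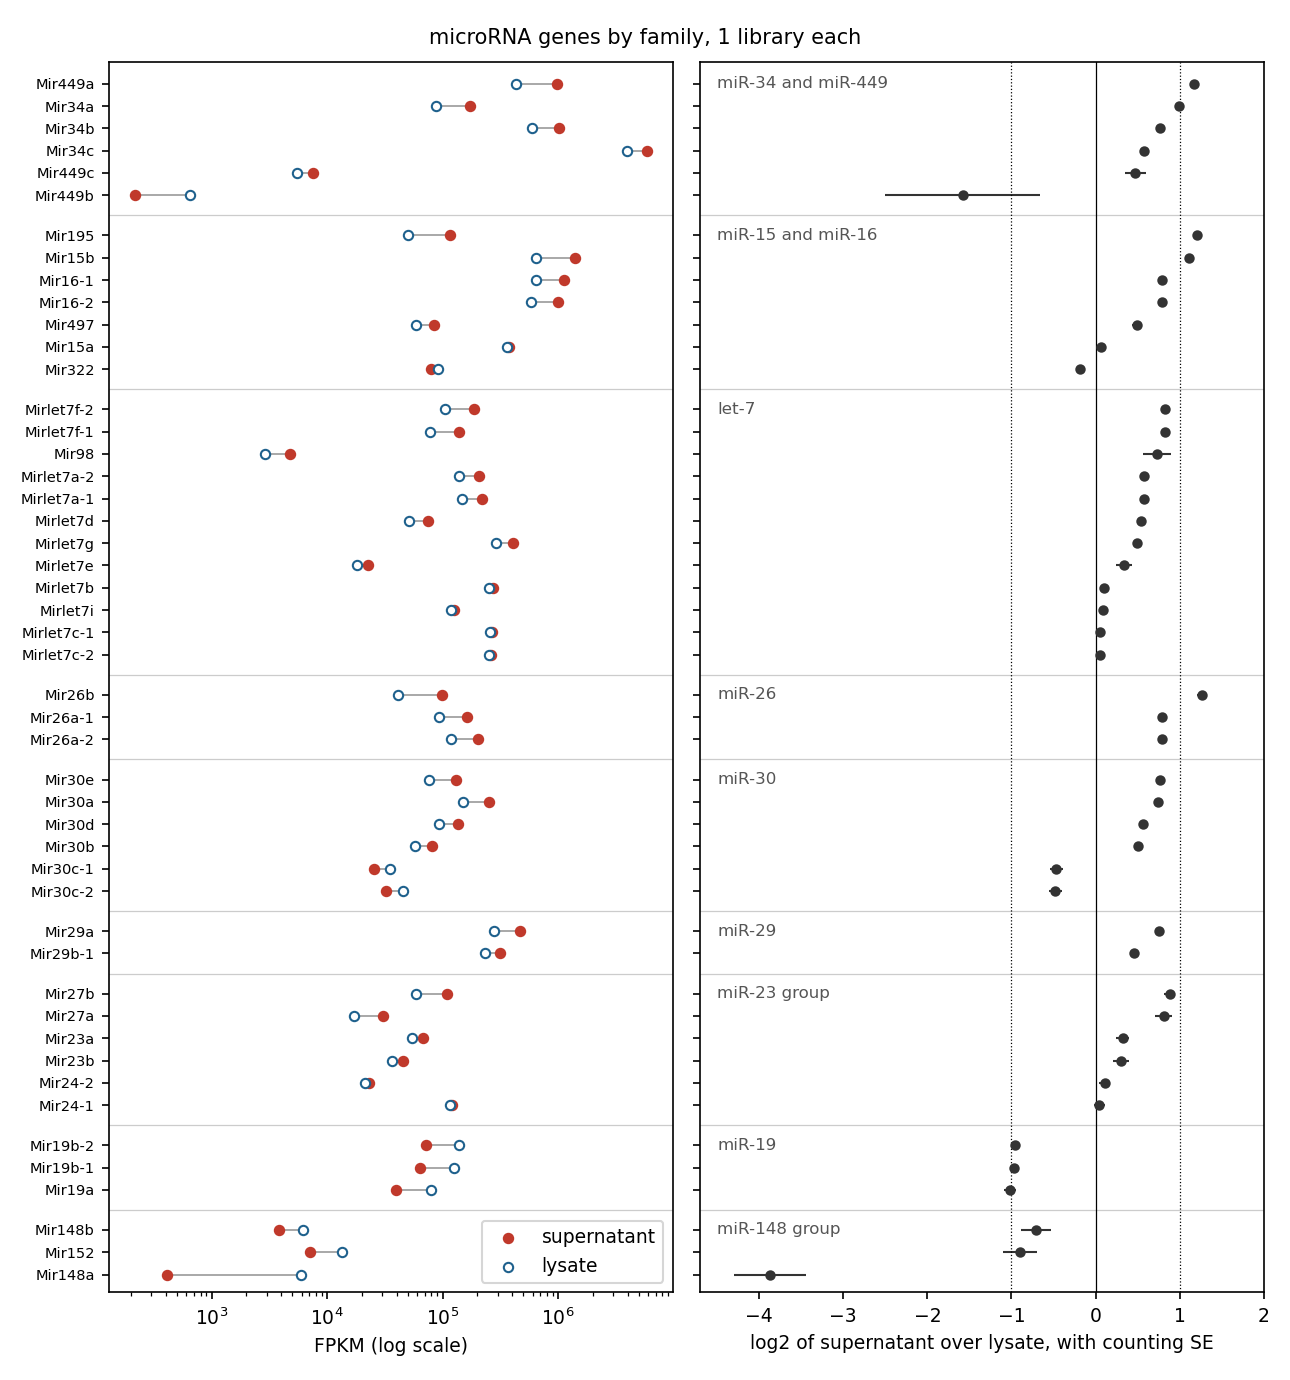
microRNA genes of 9 families, 1 library each: FPKM on a log scale (left; filled points supernatant, open points lysate) and log2 of supernatant over lysate with counting SE (right; dotted lines 2-fold). The genes of the miR-19 and miR-148 families lie below 0, let-7 genes split into values from 0.34 to 0.83 and from 0.05 to 0.10, and Mir15a, Mir322, Mir30c-1 and Mir30c-2 lie apart from their families.

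Families whose members lay near the lysate included miR-181 (6 genes, median 0.09, 5 above 0) and the family of miR-10, miR-99 and miR-125 (8 genes, median 0.08, 5 above 0). In the second, Mir125b-1 and Mir125b-2, which share a mature strand, were at -0.22 and -0.21 (SE 0.045 each) and Mir10b at 0.22 (SE 0.047). The 5 measured genes of the epithelial miR-200 family had a median of 0.43, from Mir200b with -0.65 (SE 0.26) to Mir429 with 0.82 (SE 0.21). The 37 listed genes of the imprinted Dlk1-Dio3 locus on chromosome 12 had a median of 0.19, with 5 past 2-fold on the high side (13.5%) and 7 on the low side (18.9%). All microRNA genes gave 15.8% and 12.7%, and all features 7.16% and 5.42%. Over the 34 genes of the locus above 0 in both columns the median, without a pseudocount, was 0.11, with 3 higher and 6 lower. The 37 genes had low counts, and 3 of them had a counting SE of at most 0.25: Mir411 with 0.62 (SE 0.21), Mir379 with 0.04 (SE 0.14) and Mir541 with -0.67 (SE 0.15). Members of these lists beyond the 4 largest ratios and the most abundant gene of each were named after their values were seen.

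Genes that lie together often had unlike ratios. Hairpins within 10 kb on one strand are usually cut from one primary transcript. Of the microRNA genes with a counting SE of at most 0.25, 89 fell into 32 such groups of at least 2 genes. The median difference between the highest and the lowest gene of a group was 0.41 on the log2 scale, 7 groups spanned at least 2-fold, and 12 had genes on both sides of 0. The widest group was the X-linked testis cluster, in which Mir471 (114931 FPKM in the supernatant and 40899 FPKM in the lysate) had 1.49 (SE 0.090) and Mir883a (46975 FPKM in the supernatant and 80914 FPKM in the lysate) had -0.78 (SE 0.074), a difference of 2.28 (SE 0.12). Of the 13 genes of that group Mir463 had 1.0, Mir871 0.95, Mir742 0.91, Mir743b 0.63, Mir741 0.20, Mir883b -0.15 and Mir470 -0.26. In the miR-17-92 cluster on chromosome 14, Mir20a had 0.55 (SE 0.021), Mir18 0.42 and Mir17 0.38, whereas Mir19a and Mir19b-1 lay at -1.02 and -0.97.

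The same held in smaller groups. Mir451 and Mir144 are cut from one red cell transcript; Mir451 had 723233 FPKM in the supernatant and 384606 FPKM in the lysate, log2 ratio 0.91 (SE 0.028), and Mir144 had 16487 FPKM in the supernatant and 24191 FPKM in the lysate, log2 ratio -0.55 (SE 0.16). Mir25, Mir93 and Mir106b of one group on chromosome 5 had 0.96 (SE 0.060), 0.07 (SE 0.030) and -0.32 (SE 0.10). Mir30e had 0.76 and its neighbour Mir30c-1 -0.47. Groups with close values were Mir34b with Mir34c, Mirlet7f-2 with Mir98 (0.83 and 0.73) and Mirlet7b with Mirlet7c-2 (0.10 and 0.05). The GC content of the RefSeq mature strand moved weakly with the ratio: Spearman's rho was -0.32 over 154 genes with a 5p strand and -0.21 over 159 genes with a 3p strand. With the 5p strands split into 3 groups by GC content the median ratio was 0.49, 0.10 and 0.12 from the lowest GC to the highest. These points share 2 libraries, families with near-identical sequences weigh on them, and their part in the ratios was not tested.

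**Figure D4:**
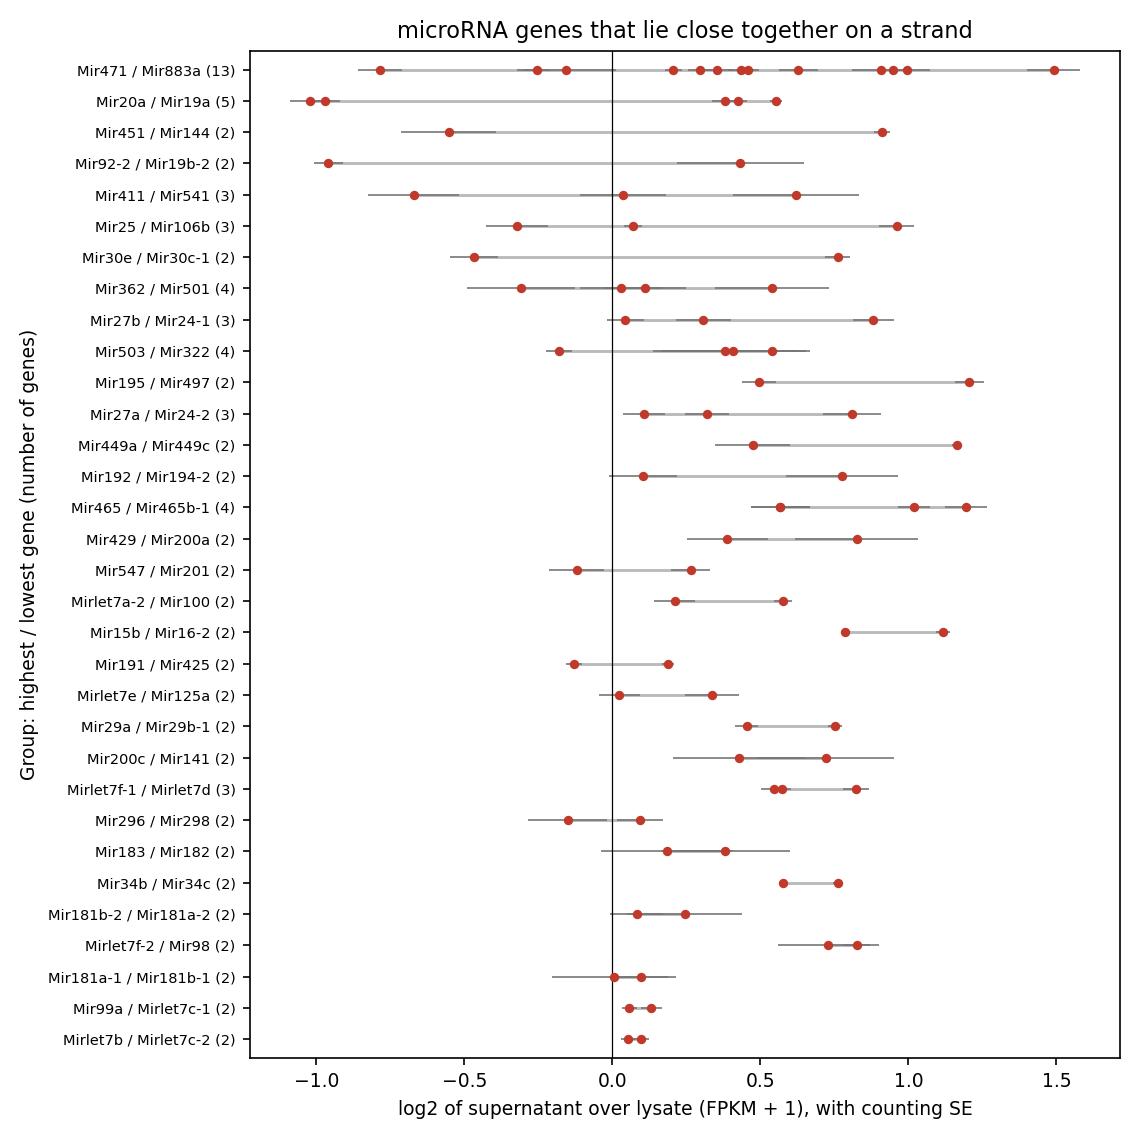
Log2 of supernatant over lysate with counting SE (x axis) for 89 microRNA genes in 32 groups of hairpins within 10 kb on one strand (y axis; each row is named by its highest and lowest gene), ordered by the width of the group. The top row spans 2.28, and 12 rows have genes on both sides of 0.

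piRNA clusters were slightly and broadly below the lysate. Of 181 clusters 129 were below 0 and 52 above, the quartiles were -0.14 and 0.01, and 178 of the 180 clusters above 0 in both columns lay within 0.5 of 0. Counting errors were small, with a median SE of 0.019, so that 106 clusters were lower and 24 higher by more than 2 counting SE, and 50 were within 2 SE. These counts depend on where the scaling of the table puts 0. The median ratio was below 0 on each of the 14 chromosomes with 5 or more clusters. The cluster with the most implied reads among those named, piRNA_cluster_187 on chromosome 17, had 1710 FPKM in the supernatant and 1822 FPKM in the lysate, log2 ratio -0.09 (SE 0.0039).

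The lowest ratio was that of piRNA_cluster_29 (chromosome 5, 113786109 to 113787245, mm9), with 156 FPKM in the supernatant and 244 FPKM in the lysate, -0.64. Its neighbour piRNA_cluster_28, which ends 1860 bases away, had -0.03, a difference of 0.62 (SE 0.052). Among clusters at or above the median level of the class, the lowest were piRNA_cluster_49 with -0.46 (SE 0.022), piRNA_cluster_107 with -0.38 (SE 0.0060), piRNA_cluster_13 with -0.35 (SE 0.010) and piRNA_cluster_113 with -0.35 (SE 0.013). The highest ratio above 0 in both columns was that of piRNA_cluster_126 (chromosome 11, 103306110 to 103307361), with 179 FPKM in the supernatant and 124 FPKM in the lysate, 0.53. It lies between piRNA_cluster_125 with -0.22 and piRNA_cluster_127 with -0.04. The clusters with the lowest and the highest ratio, both below that median level, and their neighbours were named after their values were seen. The abundant piRNA_cluster_177 on chromosome 17 had 5393 FPKM in the supernatant and 4635 FPKM in the lysate, 0.22 (SE 0.0083), on an implied 82648 reads in the supernatant and 47385 reads in the lysate. When the series was divided into parts, this locus was placed with ribosomal RNA-like loci. Whether its reads are piRNAs was not tested.

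The 73 pairs of clusters at most 5000 bp apart differed by a median of 0.11 on the log2 scale. They had the same sign in 45 pairs and differed by more than 0.25 in 13. Spread between clusters was wider among short loci: with clusters split into 4 groups by locus length, the quartiles of the ratio ran from -0.15 to 0.08 in the shortest (1010 to 1644 bp) and from -0.10 to -0.03 in the longest, whose medians were -0.04 and -0.07. Split into 4 groups by level, the lowest had a median of 0.00. One cluster was listed at 0 in the lysate: piRNA_cluster_112 with 6.23 FPKM in the supernatant, whose listed locus is also that of Tmem194, a gene with 315 FPKM in the supernatant and 355 FPKM in the lysate. The loci of 15 cluster and gene pairs were given as identical, among them piRNA_cluster_49 with Gm5878 and piRNA_cluster_16, which had 0.46, with 1700006A11Rik, which had -0.08. The sources used here do not say how reads were divided between such features.

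**Figure D5:**
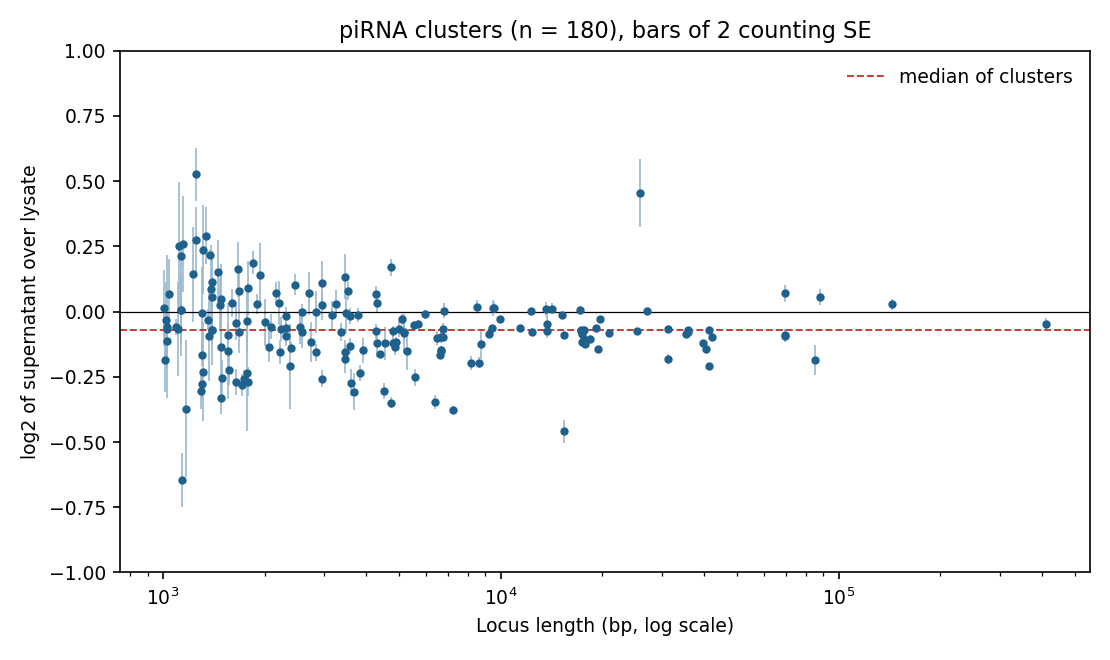
Log2 of supernatant over lysate (y axis) against the length of the listed locus in bp (x axis, log scale) for 180 piRNA clusters; bars are 2 counting SE and the dashed line is the median, -0.07. Values from -0.64 to 0.53 occur among the shortest loci, and most of the longest lie just below 0.

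Reads on other named genes had ratios near 0, and the few well-measured exceptions were on the low side. Of 3535 such genes, 40 were past 2-fold on the high side and 33 on the low side, where all features gave 7.16% and 5.42%. The 7 with a counting SE of at most 0.25 that were at least 2-fold lower were Lrfn1, 2810433D01Rik, Hrc, Snrnp48, Blm, Magt1 and Zfp868; 5 of these, from Hrc on, were named after their values were seen. Lrfn1, a synaptic adhesion protein gene, had 3.39 FPKM in the supernatant and 9.32 FPKM in the lysate, log2 ratio -1.23 (SE 0.23). 2810433D01Rik had 11.4 FPKM in the supernatant and 27.0 FPKM in the lysate, -1.17 (SE 0.15). Hrc, which encodes a calcium-binding protein of the sarcoplasmic reticulum, had 4.80 FPKM in the supernatant and 11.6 FPKM in the lysate, -1.12 (SE 0.16). Blm, a DNA helicase gene, had 2.54 FPKM in the supernatant and 6.50 FPKM in the lysate, -1.08 (SE 0.16).

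Genes with larger counting errors reached lower ratios. 1700020L24Rik had 2.53 FPKM in the supernatant and 29.7 FPKM in the lysate, -3.12 (SE 0.35), on an implied 19.7 reads in the supernatant and 154 reads in the lysate. Riok1, an atypical kinase gene of ribosome maturation, had 0.700 FPKM in the supernatant and 6.55 FPKM in the lysate, -2.15 (SE 0.38). The stem cell factor receptor gene Kit had 0.479 FPKM in the supernatant and 2.20 FPKM in the lysate, -1.11 (SE 0.33), and the ubiquitin-specific protease gene Usp50 had -1.16 (SE 0.32). Without a pseudocount, the ratio to which the SE belongs, Riok1 had -3.23, Kit -2.20 and Usp50 -1.55. On the high side, Mtrnr2l had 36.1 FPKM in the supernatant and 12.4 FPKM in the lysate, 1.47 (SE 0.40). The nuclear long non-coding RNA Malat1 had 7.59 FPKM in the supernatant and 4.97 FPKM in the lysate, 0.52 (SE 0.10). Malat1 did not stand for its list of 9 long non-coding RNA names: of the 5 measured, 2 were above 0 and 3 below. Their median was -0.16, and Neat1 had -0.19 (SE 0.24). The small cytoplasmic RNA Rn4.5s had 1956 FPKM in the supernatant and 1347 FPKM in the lysate, 0.54 (SE 0.12).

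Of the 20 genes of late spermatids, among them genes of sperm chromatin and tail proteins, all 20 were listed, 16 were above 0 and none reached 2-fold, with a median of 0.26 against 0.02 over all features. Oaz3 had 16.9 FPKM in the supernatant and 11.1 FPKM in the lysate, 0.57 (SE 0.18), and Odf1, a tail fibre protein gene, 22.2 FPKM in the supernatant and 15.7 FPKM in the lysate, 0.47 (SE 0.16). The protamine gene Prm1 had 181 FPKM in the supernatant and 167 FPKM in the lysate, 0.12 (SE 0.11). Of 25 names of chromatoid body and piRNA pathway proteins 16 were listed, with 8 above 0, none at 2-fold and a median of 0.02. Eif2c2, which encodes the Argonaute AGO2 and shares its listed locus with piRNA_cluster_169, had 43.3 FPKM in the supernatant and 40.6 FPKM in the lysate, 0.09 (SE 0.040). Of 76 ribosomal protein genes and pseudogenes by name, 52 were above 0 and the median was 0.20. At least 2-fold higher were 3 (3.95%) and lower 1 (1.32%), where all features gave 7.16% and 5.42%. Above 0 in both columns these counts were 2 and 0. The median counting SE of the 76 was 0.49, and 5 genes had one of at most 0.25. Those 5 had a median of 0.10, with 3 above 0 and 2 below. The 12 other named genes that overlap a piRNA cluster had a median of -0.13 and the remaining 3523 a median of 0.03.

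MicroRNA markers of blood and of peritubular or vessel-wall cells were plentiful in both libraries. Fragments of protein-coding marker genes of Leydig, Sertoli, spermatogonial and spermatocyte cells were sparse, as were those of the blood gene Hba-a2. The high and the low sums thus come from different kinds of RNA, and their levels do not compare cell types. Fewer cells of a type cannot be told apart from less RNA per cell. Of 9 blood names 5 were listed, at a summed 793934 FPKM in the supernatant and 465744 FPKM in the lysate, nearly all of it Mir451, which made up 2.63% of microRNA FPKM in the supernatant and 1.91% in the lysate. Mir223 and 3 haemoglobin genes were not among the members, and Hba-a2 had 0.440 FPKM in the supernatant and 1.32 FPKM in the lysate. Of 5 smooth muscle and peritubular names Mir143 and Mir145 were listed, at a summed 309630 FPKM in the supernatant and 279123 FPKM in the lysate, with ratios of 0.26 (SE 0.047) and -0.87 (SE 0.13). Of 6 Leydig names 3 were listed, at a summed 20.9 FPKM in the supernatant and 16.7 FPKM in the lysate, and of 7 Sertoli names only Clu, with 1.58 FPKM in the supernatant and 2.08 FPKM in the lysate. Of 6 spermatogonial names Kit and Id4 were listed, at a summed 1.5 FPKM in the supernatant and 2.50 FPKM in the lysate, and of 11 spermatocyte names 7, at a summed 25.7 FPKM in the supernatant and 24.9 FPKM in the lysate. The part of other cell types in the ratios was not tested.

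Small structured RNAs, fragments of which fall into this size range, were mostly too low to measure. Of the 98 genes 4 had a counting SE of at most 0.25, with ratios from -0.02 to 0.24. The 61 C/D box small nucleolar RNA genes, guides of ribose methylation, had a median of -0.26, with 8 at least 2-fold higher and 11 lower. The 26 H/ACA box genes, guides of pseudouridylation, had a median of 0.13, with 7 higher and 5 lower, and the 6 Cajal body RNA genes 0.13, with 2 higher and 0 lower, where all features gave 7.16% and 5.42%. The positive medians rest on 4 H/ACA box and 2 Cajal body genes listed at 0 in the lysate: over the genes above 0 in both columns, without a pseudocount, the medians were -0.42 (22 genes, 3 higher and 5 lower) and -0.36 (4 genes, 0 higher and 0 lower). Snord2, the most abundant, had 131979 FPKM in the supernatant and 133655 FPKM in the lysate, log2 ratio -0.02 (SE 0.059). The 5 genes with names in Rnu were all above 0, with a median of 0.13. They are the spliceosomal RNA genes Rnu1b2, Rnu11 and Rnu12, and Rnu73a and Rnu73b, which despite the name give a C/D box small nucleolar RNA and share a listed locus, so their values are uncertain. Rnu1b2 had 407 FPKM in the supernatant and 343 FPKM in the lysate, 0.24 (SE 0.034), Rnu12 0.13 (SE 0.050) and Rnu11 0.04 (SE 0.12). Snora81 was listed at 0 in the lysate, with 183 FPKM in the supernatant.

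Assembled transcripts carried most of the 2-fold differences, and few of them were well measured: 46 of the 798 (5.76%) had a counting SE of at most 0.25. Among them, 214 were listed at 0 in the lysate and 118 at 0 in the supernatant. Their median was 0.01, but -0.19 over the 466 above 0 in both columns. The most abundant, on chromosome 2 (151077379 to 151077787, mm9), had 4331 FPKM in the supernatant and 7335 FPKM in the lysate, log2 ratio -0.76 (SE 0.089), and its nearest piRNA cluster was 102820 bp away. The 54 assembled transcripts within 100 kb of a piRNA cluster had 5 at least 2-fold higher (9.26%) and 1 lower (1.85%). The other 744 had 234 (31.5%) and 172 (23.1%), where all features gave 7.16% and 5.42%. Of these 744, 211 were listed at 0 in the lysate and 118 at 0 in the supernatant, against 3 and 0 of the 54. Above 0 in both columns the counts were 23 and 54 of 415, against 2 and 1 of 51. A counting SE of at most 0.25 was reached by 3.09% of the 744 and 42.6% of the 54.

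The same members were also measured in the pellet of this purification, in a table that shares the lysate library: its lysate column was 2.39 times that of the supernatant table at both quartiles in every class. Agreement or contrast between the 2 comparisons is therefore no independent result, and values are given side by side. In the pellet table the median log2 ratio to lysate was -4.68 over 355 microRNA genes, -2.44 over 180 piRNA clusters and -2.07 over 1776 other named genes, with -2.26 over all 2811 features that both tables list. Whether the column holds the first or the second pellet is not stated. Mir101a was below the lysate in both, at 126 FPKM in the pellet and 43707 FPKM in that table's lysate, a log2 ratio of -8.43. Mir148a was at 59.9 FPKM in the pellet and 14306 FPKM in the lysate, -7.88, and Mir19a at 4153 FPKM in the pellet and 189328 FPKM in the lysate, -5.51. Mir15b, which was higher in the supernatant, was at 143444 FPKM in the pellet and 1544630 FPKM in the lysate, -3.43.

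Several of the genes that were lower in the supernatant stood above the lysate in the pellet. Lrfn1 was at 37.4 FPKM in the pellet and 22.3 FPKM in the lysate, 2810433D01Rik at 153 FPKM in the pellet and 64.5 FPKM in the lysate, Hrc at 71.8 FPKM in the pellet and 27.6 FPKM in the lysate, and Snrnp48, a spliceosomal protein gene, at 52.1 FPKM in the pellet and 25.3 FPKM in the lysate. Blm was at 35.4 FPKM in the pellet and 15.5 FPKM in the lysate, Magt1, a magnesium transporter gene, at 41.6 FPKM in the pellet and 10.7 FPKM in the lysate, Usp50 at 40.5 FPKM in the pellet and 12.4 FPKM in the lysate, and Kit at 18.2 FPKM in the pellet and 5.27 FPKM in the lysate. Zfp868, 1700020L24Rik and Riok1 were not of this kind: Zfp868 was at 4.37 FPKM in the pellet and 21.9 FPKM in the lysate, 1700020L24Rik at 0.887 FPKM in the pellet and 71.0 FPKM in the lysate, and Riok1 at 4.62 FPKM in the pellet and 15.7 FPKM in the lysate. In the separately scaled column of the MVH immunoprecipitate, 2810433D01Rik was at 2903 FPKM, Hrc at 1377 FPKM, Blm at 726 FPKM, Usp50 at 721 FPKM, Snrnp48 at 590 FPKM, Kit at 444 FPKM, Magt1 at 391 FPKM and Lrfn1 at 379 FPKM, against 22.1 FPKM for Riok1, 11.3 FPKM for Zfp868 and 10.6 FPKM for 1700020L24Rik. In the control immunoprecipitate with an antibody to the acrosomal protease ACR, whose lysate column is the same library again, Lrfn1 was at 273 FPKM in the ACR immunoprecipitate and 18.9 FPKM in the lysate, Hrc at 133 FPKM in the ACR immunoprecipitate and 1.56 FPKM in the lysate, and Blm at 97.8 FPKM in the ACR immunoprecipitate and 3.22 FPKM in the lysate. For the ACR immunoprecipitate and that lysate, 2810433D01Rik was at 160 and 4.60 FPKM, Usp50 at 54.6 and 2.09 FPKM, and Kit at 54.6 and 1.65 FPKM. The lysate value itself depended on the table for some of these genes. At the median of other named genes the ACR table's lysate column was 2.06 times that of the supernatant table. Hrc, however, stood at 1.56 FPKM there and at 11.6 FPKM in the lysate of the supernatant table. Blm stood at 3.22 and 6.50 FPKM, 2810433D01Rik at 4.60 and 27.0, Kit at 1.65 and 2.20, and Usp50 at 2.09 and 5.18. Some microRNA genes differed more, where the median of their class was 2.08 times. In the same order, Mir19b-1 stood at 3937 and 124592 FPKM, Mir26a-1 at 347 and 93763, Mir16-2 at 25111 and 576949, Mirlet7f-1 at 1916 and 77599, and Mir29b-1 at 987 and 231077. The levels of all these genes are uncertain, and the cause was not tested. Among features named as piRNA clusters, the ribosomal RNA-like piRNA_cluster_177 was at 11581 FPKM in the pellet and 11080 FPKM in the lysate. The median cluster had a log2 ratio of -2.44 there.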

How the data were processed

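The data are 1 supernatant and 1 lysate library of RNA of 19 to 33 nt. TopHat, Cuffdiff and mm9 are named, without roles or versions, per the submitters' processing notes; the annotation and the handling of multiply mapping reads are not given in the sources used here. Deposited values are FPKM, a unit inferred from the layout of Cuffdiff output and from the values themselves; the deposited table also holds the authors' test statistic, a score, and p-values and q-values. Both columns were used as deposited. Features reaching 1 FPKM in a column were kept (97 were left out), a pseudocount of 1 FPKM was added, and log2 ratios of supernatant over lysate were taken. The counting SE is the ratio without pseudocount over the authors' test statistic, for features above 0 in both columns. A simulation with Poisson reads built its statistic from the same formula. It could check the arithmetic only, not the authors' statistic or the implied reads. Total counts are not given, so depth was implied from the values. Locus coordinates are mm9, as deposited, and a listed locus can be that of a host or overlapping gene. RefSeq sequences (GRCm38.p6) were used for letters only. The members and the 36 gene lists were chosen with earlier results of these data known. Named features were, per class, the 6 highest in the lysate, the 8 highest and 8 lowest ratios (4 and 4 for assembled transcripts) among those at or above the class median level, the 3 highest listed at 0 in either column, and per list up to 4 with the largest ratio and the most abundant; others are said to be named after their values were seen. With 1 library a side no test was possible. Pellet, ACR and MVH values come from separately scaled tables; 1 column of no sample here was not used. The list of mitochondrial genes had no measured member. Tools were matplotlib 3.10.9, scipy 1.17.1, pandas 2.3.3 and numpy 2.4.6 under Python 3.11.15. Alternatives tried were other pseudocounts, filters, centring, locus length, counting SE, features above 0 in both columns, and leaving out shared loci.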

Additional observations from a re-analysis of the deposited data

How the results depend on the processing

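Of 162 values recomputed under 9 alternatives, 110 stayed within the limits of the main value, 48 moved and 4 reversed. A reversal was counted only where the 95% interval of the main median, taken over features, lay clear of 0. Other medians that changed sign are therefore among the kept or moved values. The median over all features turned to -0.0132 with a filter of 10 FPKM and to -0.0078 with a counting SE of at most 0.25, and was 0.0060 with a pseudocount of 10 FPKM and 0 after centring. The median over other named genes was -0.0164, -0.0078, 0.0060 and 0.0024 under these settings, and 0.0361 above 0 in both columns, so neither has a stable direction. The microRNA median stayed above 0 in all 9 alternatives, and that of piRNA clusters was -0.0919 after centring. The median of assembled transcripts, 0.01 in the main setting, was -0.18 with a filter of 10 FPKM and -0.19 above 0 in both columns. It was -0.17 with a counting SE of at most 0.25 and -0.0077 after centring. That of small structured RNA genes, -0.11 in the main setting, was 0.09 over the 4 genes with a counting SE of at most 0.25. These medians too have no stable direction. Counts of 2-fold differences depended on low features. With a pseudocount of 10 FPKM, 120 features were higher and 107 lower, of which assembled transcripts made up 50 and 44, other named genes 1 and 3 and piRNA clusters 0 of the higher ones. With a filter of 10 FPKM the counts were 126 and 124, with 53 and 56 assembled transcripts, 1 and 6 other named genes and 0 piRNA clusters higher. Without a pseudocount, above 0 in both columns, 32 microRNA genes, 10 small structured RNA genes, 0 piRNA clusters, 70 assembled transcripts and 197 other named genes were higher, and 93 assembled transcripts and 133 other named genes lower. With a pseudocount of 0.1 FPKM 164 other named genes were higher and 119 lower. On loci of at least 200 bp 37 microRNA genes were higher and 26 lower. With a counting SE of at most 0.25, 8 features were higher and 9 lower over all, with 8 and 2 microRNA genes, 0 and 7 other named genes, 0 and 0 small structured RNA genes and assembled transcripts, and 0 piRNA clusters higher. Leaving out features that share a locus, chosen after seeing the data, left 8 small structured RNA genes higher and 4 lower and 0 piRNA clusters higher; the cause of these shifts was not tested. No paired analysis was possible because each side has 1 library. Depth limits what can be seen: the median counting SE was 0.37 over all features and 0.019 over piRNA clusters.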
